A study of Mus musculus with 36 samples.

Results

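The 12 livers described here came from baseline mice that were killed at the end of the adaptation period, before any intervention started. They are compared by the number in the sample title: mice 01-06 against mice 07-12, 6 livers in each set, out of 36 livers in the series. The split was chosen because Arntl and Dbp, a pair of clock genes, differed across it in these arrays. All baseline differences below are therefore given as descriptions without a test, over the 21781 probes of the processed table. All mice were adult male C57BL/6J mice on a mild-high-fat diet with 30 percent of the energy as fat. Every animal had been fasted for at least 2 h and had passed an adaptation phase of 3 weeks. The study's methods name the substrain C57BL/6JOlaHsd and an adaptation of 2 weeks, and do not mention the baseline mice, so the labels are followed here. The baseline mice were killed directly after the adaptation. The control mice (12 livers) stayed on the same diet for another 12 weeks, and the quercetin mice (12 livers) received that diet with 0.33% (w/w) quercetin, a plant flavonol, for 12 weeks. The time of day at which each mouse was killed is not given in the sources used here, and neither is what a replicate number stands for. These 24 mice were not used to choose the split and served for the tests. Fits to the baseline arrays are given as background only.

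The circadian clock of a liver cell is a transcriptional feedback loop. The protein of Arntl (BMAL1) pairs with CLOCK, binds E-boxes and switches on the Per and Cry genes, Nr1d1, Nr1d2, Ciart, Dbp and others, whose products then repress the pair or pass the rhythm on. The Rev-erb repressors (Nr1d1, Nr1d2) and the Ror activators compete for ROR elements, which drive Arntl itself. Dbp, Tef and Hlf activate, and Nfil3 represses, genes with D-boxes. In mouse liver, messenger RNA of Arntl peaks around dawn and that of Dbp and the Per genes around dusk, and many genes of lipid, drug and energy metabolism follow the clock.

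Each array held the Cy5-labelled cRNA of 1 liver and the Cy3-labelled reference pool of all livers, and a level below is the log2 ratio of liver over reference after normalization. A difference is the mean of mice 07-12 minus the mean of mice 01-06 on that scale. The baseline arrays had a median Cy5 signal of 2.04 to 2.59 times background and 58.8% to 63.8% of spots well above it. All 9 hepatocyte markers measured were well above background in 12 of 12 baseline livers. Mouse 04 correlated least with the other baseline mice (median r = 0.47, against up to 0.71). Among the other livers, control replicate 5 stood apart: its 10 pancreatic acinar cell markers had a mean log2 ratio of 5.29 against -5.22 to -3.41 in the other 35 livers, and its median correlation with mice of the same diet was -0.28 against 0.47 to 0.71. Its RNA is part of the reference pool as well. Quercetin replicate 2 had a Cy5 signal of 8.96 times background. Results from the control and quercetin mice are given with and without control replicate 5.

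Arntl and Dbp lay on opposite sides of the split. The level of Arntl (probe at chromosome 7, 113104645-113104704, build mm8) in mice 01 to 06 was -0.15, 0.60, 1.03, 0.54, -0.17 and 0.66. In mice 07 to 12 it was -0.44, -0.02, -0.46, -0.57, -1.02 and -0.92. Its mean was 0.42 ± 0.48 (SD, n = 6) in mice 01-06 and -0.57 ± 0.36 (SD, n = 6) in mice 07-12, a difference of -0.99 (SE 0.21), and one of -1.72 with the processed signals of the scanner software. Mice 02, 03, 04 and 06 lay above all others, whereas mice 01 and 05 lay among mice 07-12. The level of Dbp (chromosome 7, 45577937-45577996, mm8) was 0.28, -1.56, -1.97, -1.34, 0.03 and -1.62 in mice 01 to 06. In mice 07 to 12 it was 0.26, -0.10, 0.36, 0.45, 0.48 and 0.70. The difference was 1.39 (SE 0.34), a fold of 2.61. The same 4 mice, 02, 03, 04 and 06, were lowest, and mice 01 and 05 again lay within the range of mice 07-12. Mouse 06, the last of the first set, had an Arntl level of 0.66 and a Dbp level of -1.62, and mouse 07, the first of the second set, had -0.44 and 0.26.

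The proximal promoters of 4 clock and clock-linked genes are shown because each holds a known clock element and belongs to a gene described below. Each is the 250 bases before a transcription start (RefSeq, GRCm38.p6), printed 5′ to 3′ on the gene's strand, and the capitals mark the element. Where a gene had several promoters, the one with the most elements is shown. Ciart (chr3:95882229-95882478, minus strand) holds 3 E-boxes and Tef (chr15:81802423-81802672, plus strand) holds 1. Per3 (chr4:151044666-151044915, minus strand) holds 2 D-boxes, and Leo1 (chr9:75441274-75441523, plus strand) holds 1 ROR element.
Ciart: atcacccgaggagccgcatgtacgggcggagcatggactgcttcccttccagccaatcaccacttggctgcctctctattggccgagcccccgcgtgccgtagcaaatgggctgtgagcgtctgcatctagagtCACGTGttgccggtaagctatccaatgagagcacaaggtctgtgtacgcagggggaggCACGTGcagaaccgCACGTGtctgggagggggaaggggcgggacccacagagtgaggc
Tef: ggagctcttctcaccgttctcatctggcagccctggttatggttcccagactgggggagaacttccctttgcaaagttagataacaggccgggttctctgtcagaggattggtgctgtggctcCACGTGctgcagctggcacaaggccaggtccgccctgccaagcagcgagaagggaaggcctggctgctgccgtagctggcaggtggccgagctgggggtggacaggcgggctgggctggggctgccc
Per3: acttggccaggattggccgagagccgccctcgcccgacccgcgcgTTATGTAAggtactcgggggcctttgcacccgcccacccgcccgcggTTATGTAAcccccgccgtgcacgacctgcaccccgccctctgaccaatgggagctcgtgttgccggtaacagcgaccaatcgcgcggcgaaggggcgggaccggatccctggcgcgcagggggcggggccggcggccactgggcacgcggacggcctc
Leo1: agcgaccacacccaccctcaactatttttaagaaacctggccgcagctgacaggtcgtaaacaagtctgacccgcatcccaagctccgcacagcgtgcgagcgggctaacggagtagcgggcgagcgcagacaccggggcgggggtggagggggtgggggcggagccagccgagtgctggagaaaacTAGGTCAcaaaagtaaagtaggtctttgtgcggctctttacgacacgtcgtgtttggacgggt
The E-box was searched as CACGTG, the D-box as TTATGTAA and the ROR element as TAGGTCA, on both strands. Of 32851 mouse promoters of the same length, 6.02% held the E-box, 0.819% the D-box and 2.23% the ROR element. A promoter was found for 33 of the 43 clock genes, genes with the largest differences and genes called for a slope below. Of these, 8 held the E-box (Bhlhe41, Ciart, Per1, Rhobtb1, Slc16a1, Slc16a12, Tef and Usp6nl), 3 the D-box (Map2k6, Per3 and Slc16a12) and 2 the ROR element (Leo1 and Nfil3). A gene was counted if any of its promoters held the element, whereas the shares above are of single promoters, so these counts cannot be compared with those shares. A match is a description of the letters in that window.

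The clock genes listed as high around dusk were higher in mice 07-12 in 11 of 12 cases, with a median difference of 0.55 against -0.01 over 13044 genes. Peak times of the single members were not measured here and may differ. Ciart, which encodes a repressor of the CLOCK-BMAL1 pair, differed most. Its level was -0.11, -0.78, -1.24, -0.95, -0.34 and -1.098 in mice 01 to 06. It was 1.04, 0.11, 0.88, 0.94, 1.14 and 1.03 in mice 07 to 12, a difference of 1.61 (SE 0.20). The sets did not overlap, and mouse 08 lay apart from the other mice of its set. Well above background on 3 of 6 arrays in mice 01-06 and on 6 of 6 in mice 07-12, Ciart was a dim probe where it was low. The repressors Bhlhe40 (difference 0.63, SE 0.13) and Cry2 (0.33, SE 0.07) also did not overlap between the sets. Of all 13044 genes, 49 (0.376%) were higher without overlap in mice 07-12 and 33 (0.253%) were lower (0.39% and 0.243% of probes), 11 genes (0.0843%) were higher and 4 (0.0307%) lower by at least 1 on the log2 scale, and since the split was chosen on this contrast nothing is read from the 3 of 12.

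Among the D-box activators, Tef differed by 0.86 (SE 0.18) and Hlf by 0.43 (SE 0.13). Tef ranged from -0.88 to 0.30 (median -0.77) in mice 01-06 and from 0.03 to 0.45 (median 0.39) in mice 07-12. Only mouse 01 of the first set reached the second. Of the Per genes, Per2 differed by 0.80 (SE 0.19), Per1 by 0.61 (SE 0.18) and Per3 by 0.20 (SE 0.07), all with overlapping sets. The 2 Rev-erb genes went apart: Nr1d2 differed by 0.49 (SE 0.13), whereas Nr1d1 differed by -0.02 (SE 0.14). Bhlhe41, at 0.05 (SE 0.06), was also within the spread between mice.

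Of the clock genes listed as high around dawn, 4 were in the processed table and 3 of them were lower in mice 07-12. Clock, the partner of Arntl, differed by -0.48 (SE 0.12) and Nfil3, the D-box repressor, by -0.61 (SE 0.16). All 4 genes had overlapping sets. Dimmer probes of Clock differed by -0.33 (SE 0.12) and -0.09 (SE 0.08). For each of the 16 clock genes the mouse of the first set nearest to the second was most often mouse 01 (9 genes) or mouse 05 (4 genes), and the mouse of the second set nearest to the first was most often mouse 08 (8 genes).

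**Figure D1:**
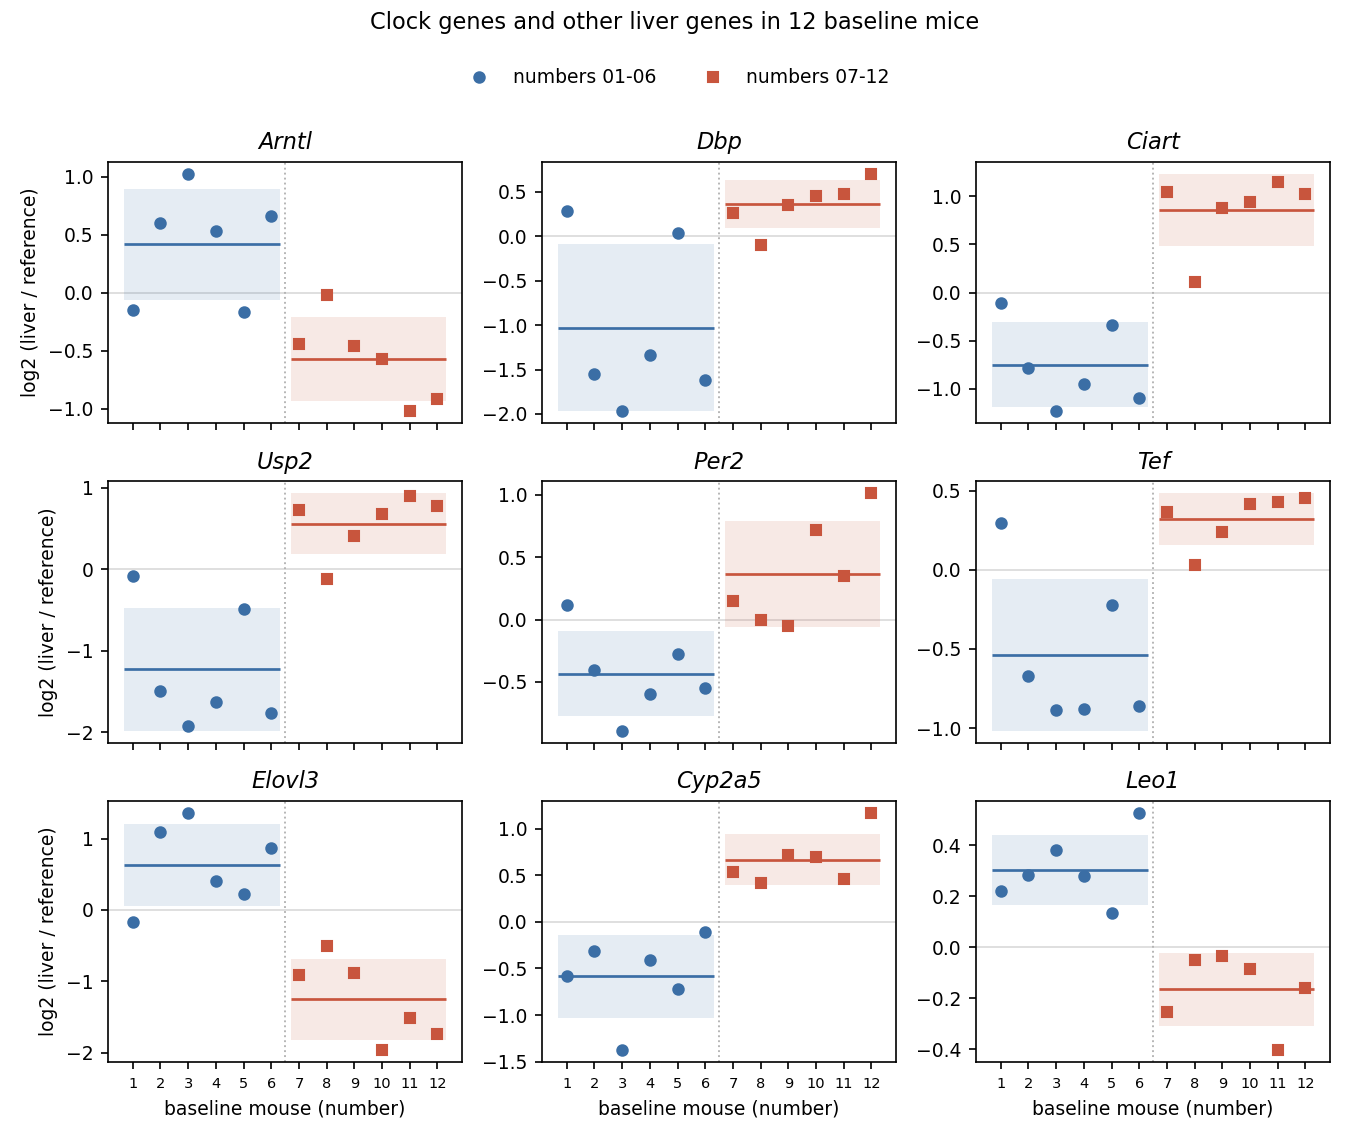
Log2 ratio of liver over reference (y axis) for 9 genes in the 12 baseline mice (x axis); each point is 1 mouse, lines are means and bands 1 SD (n = 6). Arntl, Elovl3 and Leo1 are lower in mice 07-12 and the other 6 genes are higher; mice 01 and 05 lie nearest to mice 07-12 for Arntl, Dbp, Usp2 and Tef.

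The 12 genes with the largest positive difference among those whose sets did not overlap were Ciart, Cyp2a5, Cyp2a4, St3gal5, Ppargc1b, Pcsk4, Map2k6, Rhobtb1, Klf13, Bhlhe40, Slc16a12 and Fnip2. Their differences ranged from 0.54 (Fnip2) to 1.61. Cyp2a5, a cytochrome P450 that hydroxylates coumarin and nicotine, was at -0.58, -0.31, -1.38, -0.41, -0.72 and -0.10 in mice 01 to 06. In mice 07 to 12 it was at 0.53, 0.42, 0.72, 0.70, 0.46 and 1.17. The difference was 1.25 (SE 0.18), and mice 01 and 05 did not lie nearest to the second set. Its near-identical paralog Cyp2a4, a steroid hydroxylase, differed by 1.14 (SE 0.15), and the probes of both may share hybridisation.

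St3gal5, which makes the ganglioside GM3, differed by 0.79 (SE 0.13), and Ppargc1b, a coactivator of mitochondrial and lipogenic genes, by 0.77 (SE 0.12). Pcsk4 (a proprotein convertase) differed by 0.75 (SE 0.13) and Map2k6, a kinase upstream of p38, by 0.71 (SE 0.10). Rhobtb1, a BTB domain protein, differed by 0.70 (SE 0.09), Klf13, a zinc finger transcription factor, by 0.65 (SE 0.12) and Slc16a12, a membrane transporter of the monocarboxylate carrier family, by 0.56 (SE 0.11). Fnip2, a folliculin-interacting protein, differed by 0.54 (SE 0.11). Transcription regulators, signalling proteins, transporters and P450 enzymes stood side by side among the genes that were higher in mice 07-12.

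The 12 genes with the largest negative difference among those whose sets did not overlap were Elovl3, Clpx, Slc30a10, Rnf144a, Leo1, Usp6nl, Mpzl1, Ncald, Slc16a1, 8030431J09Rik, Gfod2 and Cnn2, with differences from -1.88 to -0.35. Elovl3, an elongase of very long-chain fatty acids, was at -0.17, 1.096, 1.36, 0.41, 0.22 and 0.87 in mice 01 to 06. It was at -0.91, -0.50, -0.88, -1.97, -1.52 and -1.74 in mice 07 to 12. Its difference of -1.88 (SE 0.28) was the largest negative value of all genes, and mice 01 and 08 lay nearest to each other.

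Clpx, the chaperone subunit of a mitochondrial protease, differed by -0.83 (SE 0.16). Dimmer probes of Clpx differed by -0.71 without overlap and by -0.28 with overlapping sets. Slc30a10, a manganese exporter, and Rnf144a, a ubiquitin ligase, both differed by -0.54 (SE 0.10). Leo1, a subunit of the Paf1 complex that travels with RNA polymerase, was at 0.22, 0.28, 0.38, 0.28, 0.13 and 0.53 in mice 01 to 06. It was at -0.25, -0.05, -0.03, -0.08, -0.41 and -0.16 in mice 07 to 12, a small but non-overlapping difference of -0.47 (SE 0.08). Usp6nl, a regulator of the GTPase Rab5, differed by -0.46 (SE 0.09), the adhesion protein Mpzl1 by -0.43 (SE 0.10), the calcium sensor Ncald by -0.43 (SE 0.08) and Slc16a1, the main lactate carrier, by -0.42 (SE 0.07). The actin-binding Cnn2 differed by -0.35 (SE 0.10), and its highest value, 0.59, was that of mouse 04.

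**Figure D2:**
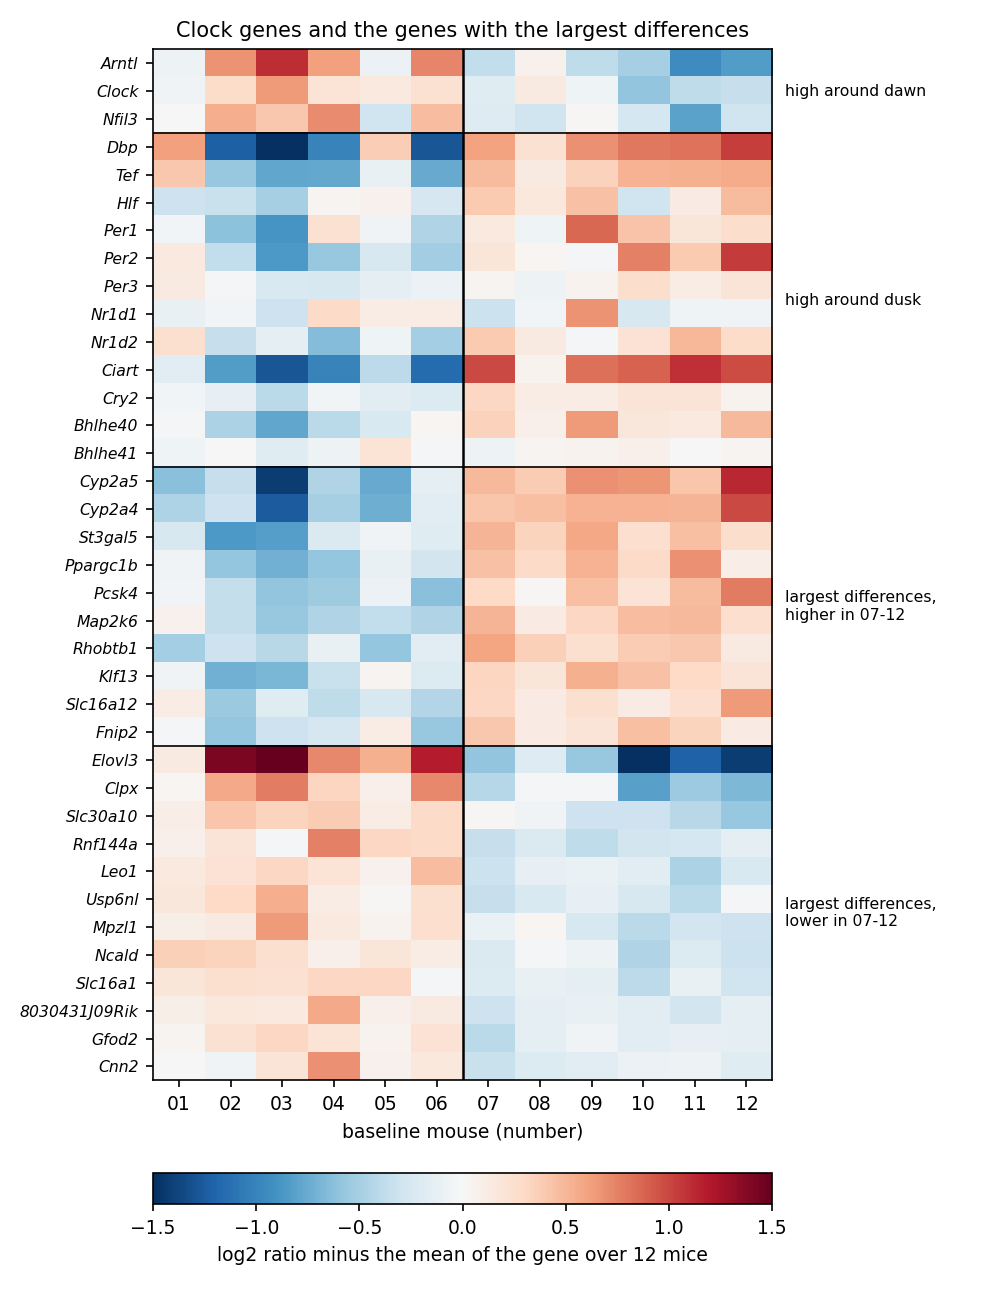
Level of 15 clock genes and of the 22 further genes with the largest non-overlapping differences (rows) in the 12 baseline mice (columns), as log2 ratio minus the mean of the gene over the 12 mice (colour scale). For Dbp, mice 02, 03, 04 and 06 are blue, and mice 01 and 05 share the red of mice 07 to 12; for Elovl3, whose sets do not overlap, all of mice 01 to 06 are red.

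Of 16 clock output genes of liver in the table, 10 were higher and 6 lower in mice 07-12, with a median of 0.46. Usp2, a deubiquitinase, was at -0.09, -1.49, -1.92, -1.63, -0.49 and -1.77 in mice 01 to 06. It was at 0.72, -0.12, 0.41, 0.68, 0.89 and 0.78 in mice 07 to 12, and the difference of 1.79 (SE 0.29) was the largest positive value of all genes although mice 01 and 08 overlapped. Upp2, which degrades uridine, differed by 1.17 (SE 0.19), and Lpin1, a phosphatidate phosphatase, by 1.08 (SE 0.29). Coq10b, Nrg4, Noct, Por and Nampt differed by 0.53 to 0.97. In the other direction, Spon2, a secreted matrix protein, differed by -0.97 (SE 0.17), Insig2, which holds back cholesterol synthesis, by -0.67 (SE 0.19) and Chka, a choline kinase, by -0.57 (SE 0.15). Elovl3 and Leo1 were the 2 members without overlap, both lower, against 0.253% of all genes. Since the split was chosen on this contrast, nothing is read from the 2 of 16.

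The metabolic gene lists differed less than the clock lists. Because the split was chosen on members of the clock lists, this order was favoured in advance and nothing is read from it. Of 18 lipogenesis genes, 16 were higher in mice 07-12, with a median of 0.17 and overlapping sets throughout. Thrsp, a lipogenic regulator, differed by 1.05 (SE 0.42), the transcription factor Srebf1 by 0.44 (SE 0.16) and Pnpla3, a lipid droplet protein, by 0.40 (SE 0.21). Of 21 genes of xenobiotic metabolism, 17 were higher (median 0.07), and 2 of them without overlap, Cyp2a5 and the sulfotransferase Sult1d1 (0.52, SE 0.09). Over all genes 0.376% were higher without overlap. The split was chosen on this contrast, so nothing is read from the 2 of 21. Por, the electron donor of the P450 enzymes, differed by 0.72 (SE 0.17) and Cyp3a25 by 0.38 (SE 0.14).

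Glycogen synthase of liver, Gys2, differed by 0.67 (SE 0.14), and Ppp1r3g, which targets a phosphatase to glycogen, by 0.93 (SE 0.29), whereas the branching enzyme Gbe1 (0.28) differed less and the median of the 10 glycogen genes was 0.08. Of 13 fasting and gluconeogenesis genes, 9 were higher (median 0.06). G6pc, the glucose-6-phosphatase subunit, went the other way at -0.84 (SE 0.31), as did Igfbp1 at -0.47 (SE 0.29), and the amino acid enzyme Sds (0.50, SE 0.17) and the glucose carrier Slc2a2 (0.36, SE 0.10) were higher. Of 20 cholesterol synthesis genes, 8 were higher and 12 lower (median -0.01). Hmgcs1, an early enzyme of the pathway, differed by -0.54 (SE 0.30), and 4 ways of scaling turned the sign of the list's median relative to all genes. Of 14 bile acid genes, 8 were higher (median 0.03). Cyp8b1, which makes cholic acid, differed by -0.72 (SE 0.15), the uptake carrier Slc10a1 by 0.26, the export pump Abcb11 by -0.26 and Cyp7b1 by -0.22. Of 24 PPAR-alpha targets, 9 were higher and 15 lower (median -0.04, of opposite sign relative to all genes under median centring and in the authors' values), and Cidec (0.32), Pdk4 (-0.31), Acot4 (0.30) and Plin2 (-0.28) differed most.

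The stress and signalling lists lay closer to the median of all genes than the clock lists did, which the choice of the split on clock genes also favoured. Their medians were 0.03 for 18 genes of endoplasmic reticulum stress (12 higher), 0.04 for 11 glucocorticoid targets (8 higher), 0.11 for 12 immediate early genes (9 higher) and -0.04 for 13 interferon-stimulated genes (4 higher). They were -0.08 for 10 genes of the growth hormone axis (1 higher), -0.03 for 12 cell cycle genes (5 higher) and -0.03 for 17 heat shock genes (5 higher). The largest members were Trib3 (0.45) for endoplasmic reticulum stress, Mt2 (0.82) for glucocorticoid targets, Egr1 (0.30), Rsad2 (-0.23), Bcl6 (-0.34), Ccne1 (0.47) and Bag3 (-0.23). Relative to all genes, the sign of the heat shock list turned under median centring and in the authors' values, that of the interferon list under scale normalization and that of the bile acid list in the Cy5 channel alone. Without mouse 04, 8 of 13 interferon-stimulated genes, 12 of 20 cholesterol synthesis genes and 0 of 10 growth hormone genes were higher, and without mice 01 and 05 5 of 10 growth hormone genes were. The cold-inducible Rbm3 differed by 0.37 (SE 0.10) and Cirbp by 0.05 (SE 0.13). Of 14 acute phase genes, 10 were lower in mice 07-12 (median -0.16, but not lower relative to all genes under median centring). Saa1 (-0.58), Saa2 (-0.55) and Saa3 (-0.53) were highest in mouse 04, at 1.76, 1.93 and 1.62, and without that mouse they differed by -0.28, -0.21 and -0.26. Bcl6 (-0.05), Rsad2 (-0.10) and Bag3 (-0.12) were also closer to 0 without mouse 04. Hamp, the iron hormone, was higher by 0.33. Saa1 and Saa2, like Mt1 and Mt2, are close paralogs whose probes may share hybridisation.

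**Figure D3:**
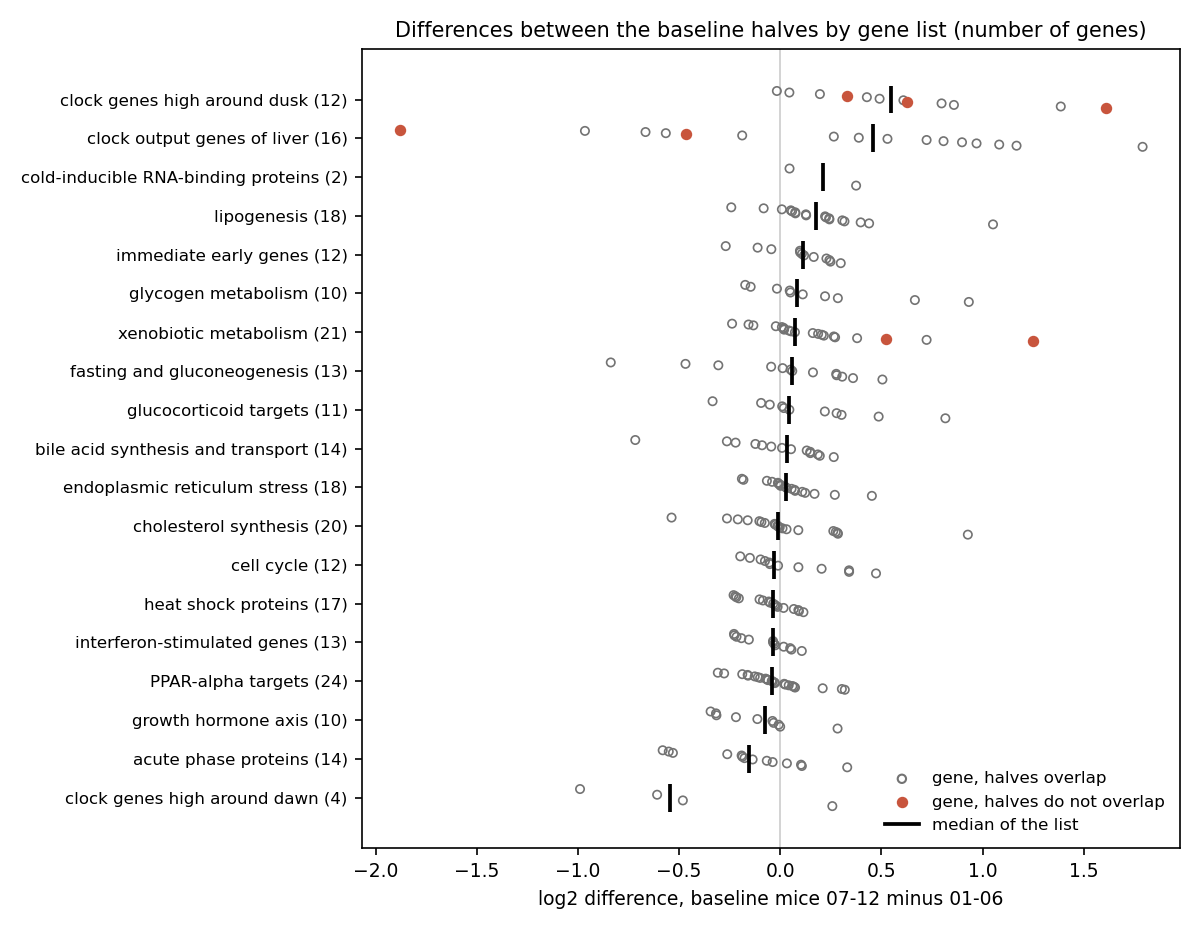
Log2 difference of mice 07-12 minus mice 01-06 (x axis) for the genes of 19 lists (y axis, number of genes in parentheses); each circle is 1 gene, filled where the sets do not overlap, and the bar is the median. The clock lists lie at -0.55 (dawn) and 0.55 (dusk), and the clock output list spans -1.88 to 1.79.

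Among the markers of other cell types, those of macrophages all lay to 1 side. So did the 3 erythroid markers (lower) and the 2 adipocyte markers (higher). All 12 Kupffer cell and macrophage markers were lower in mice 07-12, from -0.69 (Marco) to -0.14 (Cd68), with a median of -0.20. Their mean per mouse ranged from -0.61 to 0.73 in mice 01-06, highest in mouse 04, and from -1.03 to 0.08 in mice 07-12. Without mouse 04 the median was -0.05 and 9 of 12 were lower. In whole liver RNA, fewer cells of a type and less RNA per cell cannot be told apart. The medians were -0.04 for 9 hepatocyte, -0.04 for 9 endothelial, -0.09 for 10 stellate, -0.02 for 6 cholangiocyte, -0.09 for 8 lymphocyte and -0.11 for 3 erythroid markers, and 0.19 for 2 adipocyte markers. The 10 acinar markers had means per mouse of -5.16 to -4.36. The part of the macrophage markers in the differences above was not tested. Without mouse 04, the dusk list had a median of 0.54 and the dawn list of -0.51.

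The arrays of both sets shared 3 slides, in the pairs 02 and 10, 03 and 11, and 04 and 12. Within these pairs Arntl differed by -1.17, -2.05 and -1.45 and Dbp by 2.01, 2.45 and 2.04. Ciart differed by 1.72, 2.38 and 1.97 and Elovl3 by -3.06, -2.88 and -2.14. For genes whose sets did not overlap, such as Ciart and Elovl3, the sign of these values follows from the lack of overlap. Of the 13 clock genes with overlapping sets, 12 had the sign of their difference on all 3 slides, Nr1d1 being the exception. Among the mice that these pairs leave out are 01, 05 and 08, which most often lay nearest to the other set. The pairs come from the mice used to choose the split, so nothing is read from the 12 of 13. With the position on the slide as a term, the difference was -0.93 for Arntl and 1.32 for Dbp. Mice 01 and 05 had the same array position as mice 08 and 12. Without mice 01 and 05, a choice made on their clock gene levels, Arntl differed by -1.28 and Dbp by 1.98, and 218 genes (1.67%) were higher and 192 (1.47%) lower without overlap. Without mouse 04 these counts were 73 (0.56%) and 54 (0.414%). Leaving mice out can only add genes without overlap, so these counts and shares cannot be compared with those of all 12 mice.

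The same split by number was then tested in the other diets, whose mice the choice of the split had not used. For the baseline arrays limma gave 34 of 21781 probes (0.156%) below an adjusted p of 0.05, 24 of them higher (0.11%) and 10 lower (0.0459%) in mice 07-12 and 1913 (8.78%) at an unadjusted p under 0.05, which is given as background only (8 of 8 were higher with the scanner's processed signals, 35 of 36 under median centring, which moved the median of all genes to 0.16, and 17 of 19 with scale normalization). Among the control mice limma called 0 probes (1883 or 8.65% at an unadjusted p under 0.05) and among the quercetin mice 0 (1722 or 7.91%). Other processing gave calls in the quercetin mice: 55 without background correction, 22 with scale normalization, 35 in the authors' values and 179 with array weights. Arntl differed between control mice 07-12 and 01-06 by -0.13 (SE 0.21, adjusted p = 0.879, limma) and between the quercetin sets by -0.17 (SE 0.21, adjusted p = 0.905, limma). Dbp differed by 0.29 (SE 0.25, adjusted p = 0.755, limma) and 0.26 (SE 0.25, adjusted p = 0.872, limma). Ciart, Usp2, Tef, Per2, Elovl3, Leo1 and Cyp2a5 did not pass the test in either diet. Without control replicate 5, 2 probes (0.00918%) were called in the control mice, 1700066M21Rik (-0.47, adjusted p = 0.0301, limma) and a probe without a gene symbol (-0.44), and 0 in the quercetin mice (2324 or 10.7% and 1783 or 8.19% at an unadjusted p under 0.05).

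Which genes go with Arntl from mouse to mouse within a diet was tested in the 24 control and quercetin mice, as the slope of each gene on Arntl with the diet as a term. A slope of 1 means a change of 1 on the log2 scale per log2 unit of Arntl, and a slope opposite in sign to the baseline difference goes with it, because Arntl was lower in mice 07-12. Arntl ranged from -0.36 to 0.84 (median 0.65) in the control and from -1.05 to 0.16 (median -0.17) in the quercetin mice. Both values of each pair come from the same array. Of 21780 probes, 15 were called (0.0689%; limma, adjusted p under 0.05), 7 with a positive (0.0321%) and 8 with a negative slope (0.0367%), and 1427 (6.55%) had an unadjusted p under 0.05. By their brightest probe 9 of 13043 genes (0.069%) were called, 4 positive (0.0307%) and 5 negative (0.0383%). The count of probes depended on the normalization, with 1 under median centring, 3 with scale normalization and 3110 in the Cy5 channel alone. All 15 had a baseline difference of the opposite sign.

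The called genes with a negative slope were Usp2 (-1.05, SE 0.20, adjusted p = 0.0284, limma), Dbp (-0.96, SE 0.16, adjusted p = 0.0128), Ciart (-0.91, SE 0.16, adjusted p = 0.0146), Inmt, a methyltransferase of indole amines (-0.77, SE 0.15, adjusted p = 0.0482) and Tef (-0.59, SE 0.11, adjusted p = 0.0278). Those with a positive slope were Spon2 (0.80, SE 0.14), the adhesion protein Lrfn3 (0.76, SE 0.12), Leo1 (0.48, SE 0.08) and Dtx4, a ubiquitin ligase of the Notch pathway (0.46, SE 0.08), each with an adjusted p of 0.0128 (limma). Other probes of Slc30a10, Grk5, Pitpnc1 and Spon2 were called as well. The lowest adjusted p belonged to a probe without a gene symbol (-0.62, SE 0.08, adjusted p = 0.000383, limma). At baseline Lrfn3 differed by -0.97 (SE 0.20), Dtx4 by -0.55 (SE 0.12) and Inmt by 0.47 (SE 0.19), all with overlapping sets.

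Without control replicate 5, 8 of the 15 probes were called (0.0367%), and no others, 6 positive (0.0275%) and 2 negative (0.00918%), with 1483 (6.81%) at an unadjusted p under 0.05. By brightest probe these were 5 genes (0.0383%), 4 positive (0.0307%) and 1 negative (0.00767%). Lrfn3 (0.78, adjusted p = 0.0245, limma), Spon2 (0.75, adjusted p = 0.0442), Dtx4 (0.48, adjusted p = 0.0245), Leo1 (0.46, adjusted p = 0.0442) and Dbp (-0.92, adjusted p = 0.0442) remained. So did the probe without a gene symbol (-0.59, adjusted p = 0.00216, limma). Usp2 (-0.90, adjusted p = 0.102, limma), Ciart (-0.82, adjusted p = 0.0586), Tef (-0.56, adjusted p = 0.102) and Inmt (-0.76, adjusted p = 0.118) no longer passed. Without quercetin replicate 2 the count was 22. The 2 mice whose Arntl lay farthest from the median of their diet were control replicate 7 (-0.36) and quercetin replicate 9 (-1.05). Without these 2 mice 1 probe was called, and none of the 9 genes passed, although their slopes were close to those above (Dbp -1.04, adjusted p = 0.225; Leo1 0.56, adjusted p = 0.12; limma).

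**Figure D4:**
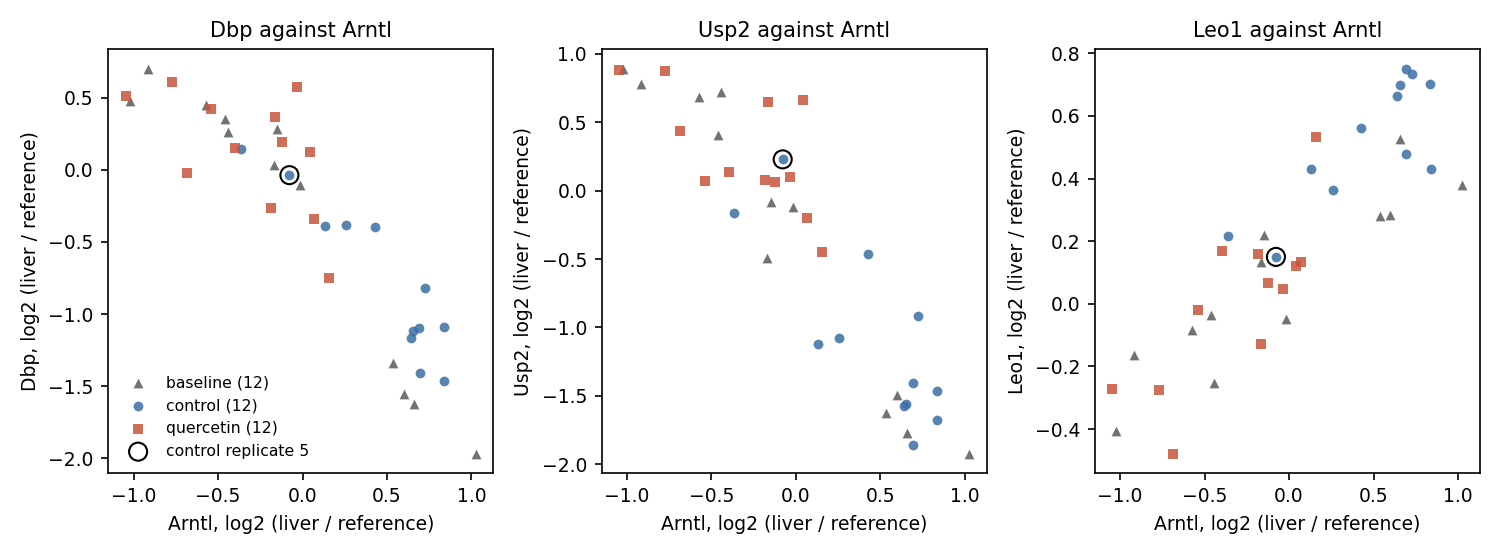
Log2 ratio of Dbp, Usp2 and Leo1 (y axes) against that of Arntl (x axis) in the 36 livers; each point is 1 mouse, by diet group, and the circle marks control replicate 5. Dbp and Usp2 are lower and Leo1 is higher where Arntl is higher, and the control mice reach 0.84 for Arntl while the quercetin mice end at 0.16.

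The genes described at baseline were then followed in these 24 mice. Of the 49 genes higher without overlap in mice 07-12, 42 had a negative slope on Arntl and 12 of these an unadjusted p under 0.05. Of the 33 lower ones, 30 had a positive slope and 9 an unadjusted p under 0.05. All 12 named higher and all 12 named lower genes had the opposite sign, with 10 and 8 at an unadjusted p under 0.05. Over all 13043 genes, 61.4% had the opposite sign and 6.42% an unadjusted p under 0.05. Across these genes, which are not independent of each other, the baseline difference and the slope had r = -0.401. Without control replicate 5 the numbers were 42 of 49, 30 of 33, 12 of 12 and 12 of 12, against 62.3% of all genes, with 6.63% at an unadjusted p under 0.05, and r was -0.482. Elovl3 had the largest slope of the 24 named genes, 1.13 (SE 0.30, adjusted p = 0.287, limma), which was not called. Clpx (0.52, adjusted p = 0.132), Cyp2a5 (-0.70, adjusted p = 0.325), Ppargc1b (-0.61, adjusted p = 0.256) and Map2k6 (-0.43, adjusted p = 0.208) were not called either. Ncald, Cnn2 and 8030431J09Rik had slopes of 0.03 to 0.05 and St3gal5 one of -0.23 (SE 0.17).

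**Figure D5:**
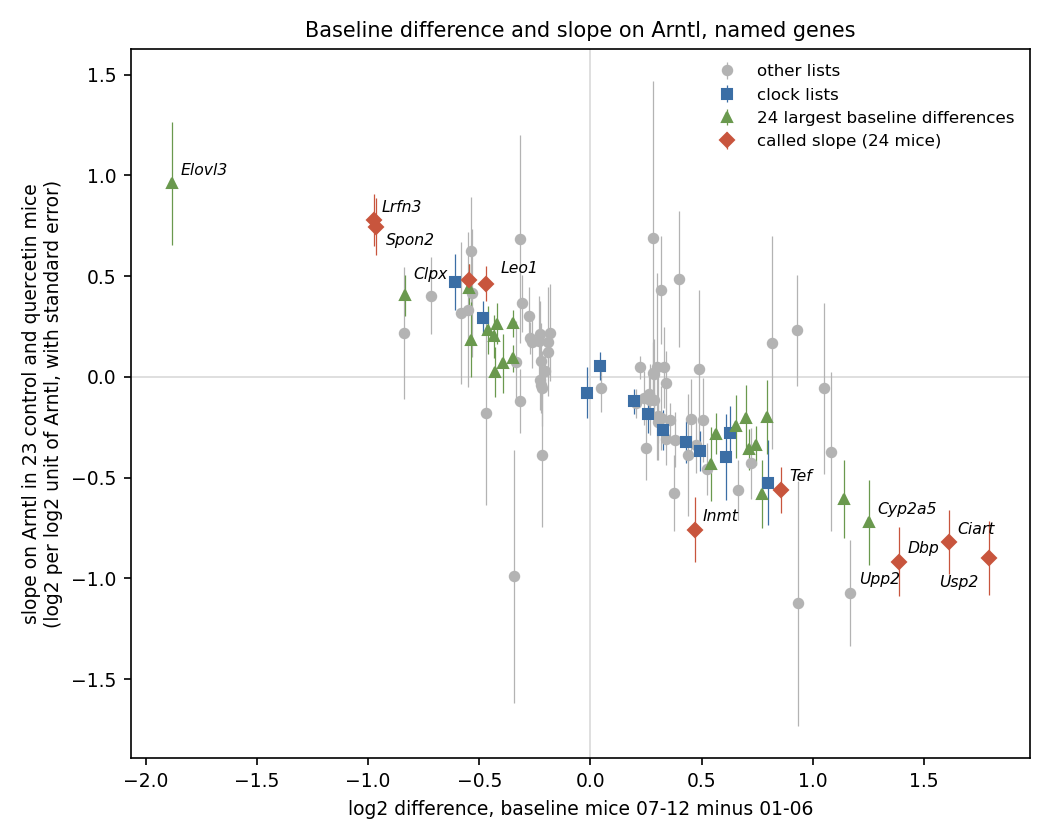
Baseline difference (x axis, log2, mice 07-12 minus 01-06) against the slope on Arntl in 23 control and quercetin mice without control replicate 5 (y axis, log2 per log2 unit of Arntl, bars are SE) for the named genes, coloured by how they were named. Genes higher in mice 07-12 mostly have negative slopes, down to -0.92 for Dbp among the genes called in 24 mice, and Elovl3 lies at -1.88 with a slope of 0.96.

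By list, 10 of 12 dusk genes had a negative slope on Arntl, 3 of them called (Dbp, Ciart and Tef) and 9 at an unadjusted p under 0.05, against 461 of 13043 genes (3.53%; 376 or 2.88% were positive). Over all genes, 0.0383% were called with a negative slope. Without control replicate 5, 1 dusk gene was called, against 0.00767% of all genes with a negative slope. Of the dusk genes 8 then had an unadjusted p under 0.05, against 3.5% of all genes (3.13% positive). Clock (0.32, adjusted p = 0.208, limma) and Nfil3 (0.50, adjusted p = 0.256) had positive slopes that were not called. Of the clock output genes 3 were called, Spon2 and Leo1 with a positive and Usp2 with a negative slope, and 13 of 16 had an unadjusted p under 0.05. Over all 13043 genes, these shares were 0.069% and 6.42%. Without control replicate 5, 2 clock output genes were called, against 0.0383% of all genes. Then 6 positive and 6 negative slopes of the list had an unadjusted p under 0.05, against 6.63% of all genes in either direction. The clock output list is not independent of these mice: Usp2, Coq10b, Insig2, Por, Chka and Spon2 are among the genes the study reported as most regulated between the diets. No member of the other lists passed the test. Of 21 xenobiotic genes, 19 had a negative slope (median -0.11). A positive slope was found for 17 of 20 cholesterol synthesis genes (20 of 20 without control replicate 5) and 14 of 14 acute phase genes (13 of 14). Over all 13043 genes, 6360 slopes were positive and 6683 negative (6652 and 6391 without control replicate 5). Genes of a list are not independent of each other, so nothing is read from these counts. The 18 lipogenesis genes, of which 16 were higher at baseline, had 8 positive and 10 negative slopes (median -0.00). The 12 macrophage markers had 6 positive and 6 negative slopes (median 0.01; 9 and 3 without control replicate 5, median 0.04). The 10 acinar markers all had negative slopes (median -1.41), whereas 9 of 10 were positive (median 0.26) without control replicate 5; their part in the calls was not tested. Without it, 11 of 12 dusk genes had a negative slope, and 10 of 18 lipogenesis genes a positive one.

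The slopes were compared between the diets by an interaction term, and 0 of 21780 probes passed (1188 or 5.45% at an unadjusted p under 0.05; limma). Dbp had a slope of -1.29 in the control and -0.62 in the quercetin mice, a difference of 0.67 (SE 0.30, adjusted p = 0.881, limma). Leo1 had slopes of 0.43 and 0.54. Without control replicate 5 the count was 0 as well (730 or 3.35% at an unadjusted p under 0.05).

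Finally, the slope on Arntl was fitted inside the baseline group with the set as a term. This term takes out the mean difference between the sets, but the arrays are those used to choose the split. Arntl and Dbp are also the genes used for that choice. Mice 01 and 05 had Arntl and Dbp levels within the range of the other set, so the slope is not independent of that contrast. The counts and adjusted p-values are therefore given as background only, and nothing is read from them. Of 21780 probes 4 were called (0.0184%; 976 or 4.48% at an unadjusted p under 0.05): Usp2 (-1.29, SE 0.16, adjusted p = 0.0291, limma), Dbp (-1.48, SE 0.20, adjusted p = 0.0375), Ciart (-0.88, SE 0.12, adjusted p = 0.0375) and Slc5a6, a vitamin carrier (-0.57, SE 0.08, adjusted p = 0.0484). Mice 01 and 05 had the Arntl levels farthest from the median of their set. Without them 0 probes were called (704 at an unadjusted p under 0.05; limma), with slopes of -0.88 for Usp2, -0.76 for Dbp, -0.85 for Ciart and -0.51 for Slc5a6 and an adjusted p of 0.999 for each. Without mouse 04 the count was 1.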

How the data were processed

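Liver RNA of 36 mice was hybridised on Agilent 2-colour arrays, 4 arrays on each of 9 slides, each liver in Cy5 against the pooled reference in Cy3. The authors deposited the scanner output, with linear intensities per spot (Agilent Feature Extraction 10.5.1.1 per the file headers), and a table of normalized log2 values, whose rows set the 21781 probes analysed here. The deposited log2 values served as an alternative. Median signals were background-corrected with normexp (offset 50) and loess-normalized within each array with limma 3.58.1 in R 4.3.3. Control spots and outlier spots had no weight. Spots of a probe were averaged, and a gene is given by its brightest probe (13044 genes). Slopes and differences were fitted with limma and p-values adjusted by Benjamini-Hochberg over all probes, with a threshold of 0.05. The code of the fits was run on simulated data with known changes and independent noise in each probe. Real probes are not independent of each other, so this run does not measure the error rate of the calls above. The labels do not say what a replicate is beyond a mouse, and the number of arrays limits the precision.

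The members and gene lists were chosen with earlier results of these data known. Named were all clock list members, the 12 largest positive and the 12 largest negative non-overlapping baseline differences, up to 10 called slopes in each direction, and up to 4 members of each other list with the largest difference. A few genes this rule names are not reported here. Replicate numbers did not pair control with quercetin mice: the deviations of 12 same-numbered pairs had a median correlation of -0.03, and 3 pairs were over 0.1. The fits that leave out control replicate 5, baseline mice 04, 01 and 05, or the mice farthest in Arntl were chosen after seeing the data. Probe positions are those of the arrays (mm8), promoters are RefSeq (GRCm38.p6), and neither set of coordinates was converted.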

Additional observations from a re-analysis of the deposited data

Results flagged for a closer look

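Among 204 groups of 6 baseline mice (102 genes, each in both sets), 15 single values lay far from the other 5 of their set by Dixon's criterion, where chance gives about 1 in 20 groups. Of these 4 were in mouse 01, 3 in mouse 04, 2 each in mice 03, 09 and 12, and 1 each in mice 07 and 08. All are log2 ratios. In mouse 01, Map2k6 was at 0.19 (others -0.44 to -0.23), Slc2a2 at 0.38 (-0.20 to -0.07), Gbe1 at 0.15 (-0.21 to -0.10) and Dtx4 at -0.27 (0.14 to 0.35). In mouse 04, Mt2 was at 1.05 (-1.80 to -0.89), Cnn2 at 0.59 (-0.14 to 0.11) and 8030431J09Rik at 0.52 (0.02 to 0.10). In mouse 03, Mpzl1 was at 0.56 (-0.03 to 0.18) and Atf4 at 0.093 (-0.22 to -0.16). In mouse 09, Nr1d1 was at 0.76 (-0.23 to 0.04) and Slc10a1 at -0.35 (0.31 to 0.52). In mouse 12, Cyp2a4 was at 0.96 (0.39 to 0.50) and Slc16a12 at 0.45 (-0.07 to 0.12). Gfod2 was at -0.64 in mouse 07 (-0.41 to -0.29) and Ciart at 0.11 in mouse 08 (0.88 to 1.14).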

How the results depend on the processing

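The baseline differences of the 24 named genes kept their sign in 360 of 360 values over 15 settings, and the clock genes in 234 of 238. The 24 genes were chosen for sets without overlap, so leaving out, pairing or weighting mice could not turn their sign. Settings that change only the test or the choice of probes leave the differences as they were. The 9 called slopes kept theirs in 184 of 185 values over 21 settings, the exception being Inmt with scale normalization (0.37). Another probe of Cry2 differed by -0.024 and one of Slc16a1 by 0.067 at baseline, opposite to the brightest probes. Counts of calls moved more. The 34 probes called at baseline became 8 with the scanner's processed signals, 21 without background correction, 19 with scale normalization, 4 in the Cy5 channel alone, 99 with the slide as a random block, 3 with array position as a term, 0 by the methods' t-test after adjustment, 228 with array weights, 13 without mouse 04 and 157 without mice 01 and 05. The 49 higher and 33 lower genes without overlap became 212 and 5 under median centring, 29 and 27 in the Cy5 channel alone, and 107 and 25 in the authors' values. They became 73 and 54 without mouse 04, and 218 and 192 without mice 01 and 05. Leaving mice out could only raise these counts, so they cannot be compared with the 49 and 33. The 0 calls in the quercetin mice became 55 without background correction, 22 with scale normalization, 35 in the authors' values and 179 with array weights. The 0 calls in the control mice became 2 without control replicate 5, and remained 0 without quercetin replicate 2. The 15 slope calls became 1 under median centring, 3 with scale normalization, 3110 in the Cy5 channel alone, 25 in the authors' values, 7 with array position, 5 by an ordinary linear model, 8 without control replicate 5, 22 without quercetin replicate 2, 1 without the 2 mice farthest in Arntl, 56 on the dawn minus dusk mean, and 2 and 1 in control and quercetin mice alone. With the replicate number as a block (numbers that do not pair these samples) 1 slope was called. The 4 slope calls within the baseline sets became 0 with the scanner's signals, without background correction, under median centring, with array position, by an ordinary linear model and without mice 01 and 05, 1 in the Cy5 channel alone, 1 without mouse 04 and 2 on the dawn minus dusk mean. No difference of slopes between the diets was called under any alternative run. The cause of these shifts was not tested. No paired analysis was possible because mice 01-06 and 07-12 share no replicate numbers; this concerns pairing by number, and the pairs by slide are in the comparison of both sets above. Scan day as a block was not run, since all arrays shared 1 scan day. A Cy5 signal of 2.04 to 2.59 times background limits what dim probes such as Ciart in mice 01-06 can show.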

Other observations

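A few clock genes lay on the arrays outside the processed table and are given as values. Npas2 differed between mice 07-12 and 01-06 by 0.01 and was well above background on 0 of 12 arrays. Both probes of Cry1 differed by -0.06 and 0.04, on 5 and 3 arrays above background. Wee1, a cell cycle kinase under clock control, differed by 0.25 with 5 arrays above background.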
